A study of Mus musculus with 72 samples.

Results

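The comparison described here is between female C57BL/6J mice held at 40% caloric restriction (CR) and female C57BL/6J mice held at 20% CR, with liver RNA from 6 mice per group on 12 Illumina bead arrays out of the 72 of the series. The 12 arrays were chosen by the strain, sex and diet in the names of their signal columns, and single arrays are called by the code and number given there (CF-55, for a C57BL/6J female). Of 25697 probes on the array, 9754 were detected on 6 or more of the 12 arrays (detection p-value below 0.01) and were tested, and the named ones covered 6924 genes, each described by its brightest probe. The whole series crosses 2 strains (C57BL/6J and DBA2/J) with sex and 3 diets, ad libitum feeding (AL) being the third. The mice were bred in house from Jackson Laboratory stock, ate the same chow and were kept in cages of 3 to 4. Restriction began at 6 months of age and was reached by weekly steps, and tissue was collected over 3 days when the mice were 23 to 24 months old, so that both groups had been restricted for 17 to 18 months. Mice of both CR groups were left without their daily ration on the day of collection, whereas AL mice could eat. The groups compared therefore share strain, sex, age, chow and the withheld meal and differ, by their labels, in the amount of food and in the column numbers of their arrays. The comparison asks what a further cut in food does to the liver transcriptome beyond a milder restriction. All levels are normalized log2 intensities, a difference of 1 being a doubling of intensity, and a level is never compared between probes. A gene is said to have risen or fallen at 40% CR only where the Benjamini-Hochberg adjusted p-value of limma, taken over all 9754 probes, was under 0.05.

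As background, the liver answers food shortage by a switch of fuel. When insulin falls and glucagon and glucocorticoids rise, hepatocytes make glucose from amino acids and glycerol, oxidize fatty acids under the nuclear receptor PPARα, make ketone bodies, and reduce glycolysis, glycogen storage and fatty acid synthesis, which insulin (through SREBP-1c) and glucose (through ChREBP) otherwise promote. Long-term restriction is also known to lower growth hormone and IGF-1 signalling and to reshape the sex-biased part of the hepatic transcriptome.

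The sex and strain markers with a clear signal matched the labels. Xist was detected on all 12 arrays and the Y-linked gene Eif2s3y on none, and Hc, which is expressed in C57BL/6J and reduced in DBA2/J, stood at 9.23 and 9.51 in the 20% and 40% CR females against 6.23 and 6.21 in DBA2/J females of the same diets. Other check genes said less. Kdm5d and Uty were detected on none of the 12 arrays, but in C57BL/6J males at 40% CR on only 3 and 4 of 6. Klrd1 was near background in both strains. Gpnmb, at 5.09 and 5.23 against 5.67 and 5.70 in DBA2/J females, overlapped between the strains. The hepatocyte genes Ttr and Apoa1 were near the top of the intensity range, with means of 14.4 and 14.7 at 20% CR and 14.5 and 14.7 at 40% CR, whereas the probes for Fabp1 and Tat were detected on no array and that for Alb on 1 array at 20% CR and none at 40% CR. The mean of the 11 tested hepatocyte markers ranged from 11.52 to 11.71 at 20% CR and from 11.69 to 11.95 at 40% CR. Of these markers 3 (Pck1, Rbp4 and Serpina1a) rose (27.3%, against 3.93% of all genes). The median difference of the 11 was 0.04, and 6 were positive. Between 35.8% and 41% of probes were detected on an array, with 37.2% ± 1.17 (SD, n = 6) at 20% CR and 38.7% ± 1.51 (SD, n = 6) at 40% CR (exact permutation test, two-sided, p = 0.0887). Averaged over an array, the raw signal lay between 164 and 277 (exact permutation test, two-sided, p = 0.481). The column numbers of the arrays form 4 runs of 3 consecutive numbers, 2 in each diet group, and what the numbers stand for is not stated. No run spans both diets, so whatever the numbers mark cannot be fully told apart from diet. Arrays CF-106 and CF-107 of the 40% CR group lay apart from the other 10 on the first principal component, which held 28.1% of the variance, and the second component, with 19.7%, separated the runs within each group. Counts are therefore also given with the runs as a random block and without those 2 arrays.

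At 40% CR, 391 probes were higher and 187 lower than at 20% CR, together 5.93% of those tested (4.01% higher and 1.92% lower), and 2261 had an unadjusted p-value under 0.05. Most differences were small. Among the called probes 147 were at least 1.5-fold higher and 44 at least 1.5-fold lower, and at a 2-fold limit the counts were 9 and 6. By gene, 272 rose (3.93%) and 114 fell (1.65%), together 5.57%, and the median difference over all 6924 genes was -0.003. The difference was positive in 49.5% of them. These shares over all genes are the background for every count given for a list. The 6 levels at 40% CR lay wholly above those at 20% CR for 173 genes (2.5%) and wholly below for 95 (1.37%), together 3.87%. The call counts depended on single arrays. They fell to 203 (168 higher and 35 lower) with the number runs as a random block and to 281 (215 and 66) without arrays CF-106 and CF-107. Leaving out 1 array gave from 266 to 575 calls, with 266 without array CF-70, 325 without array CF-55 and 313 without array CF-56 of the 20% CR group, and 379 without array CF-106 of the 40% CR group. The number of lower probes also moved by over 1.5 times without array CF-57, CF-117 or CF-119, where all calls numbered 456, 438 and 389. The RNA came from whole liver, in which fewer cells of a type and less RNA per cell cannot be told apart. Each of the 578 called probes kept its sign in all 23 alternatives that tested it. That was largely fixed in advance, since the calls and the alternatives rest on the same arrays. The share still called was 35.1% with the runs as a random block and 41.3% without arrays CF-106 and CF-107.

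**Figure D1:**
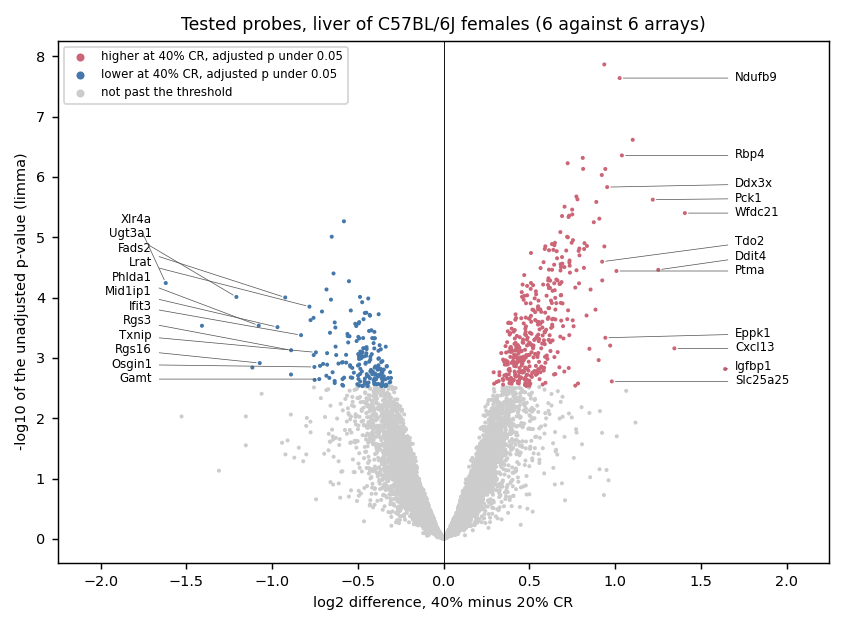
Volcano plot of the 9754 tested probes, with the log2 difference (40% minus 20% CR) on the x axis and -log10 of the unadjusted limma p-value on the y axis. The 391 higher probes outnumber the 187 lower ones, and the 12 genes with the largest rises and the 12 with the largest falls are named.

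A call was made on the brightest probe of a gene, and a smaller median in the other probes of called genes follows in part from that choice. The 50 risen genes with other tested probes had 63 of them, of which 37 were positive, 6 also rose and 2 fell, with a median difference of 0.09 against 0.49 for the brightest probes. The 2 that went against their gene's brightest probe were on Pkig (-0.51, adjusted p = 0.0209, against 0.59) and Pabpc1 (-0.37, adjusted p = 0.0244, against 0.69), genes named after their values were seen. The 22 fallen genes with other probes had 34, of which 27 were negative and 3 also fell, with a median of -0.18 against -0.44. Every call given for a gene is that of 1 probe.

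The genes of the fasting response that depend on insulin and glucagon included the largest rise of all. Igfbp1, a secreted IGF-binding protein that insulin represses, was 4.72 to 7.57 (median 5.91) at 20% CR and 6.58 to 8.76 (median 7.54) at 40% CR. Array CF-55 at 20% CR, with 7.57, lay within the 40% CR range, and the other 5 arrays at 20% CR lay below it. The log2 difference was 1.64 (SE 0.43, 3.12-fold, adjusted p = 0.0352). Pck1, the cytosolic phosphoenolpyruvate carboxykinase that commits carbon to gluconeogenesis, was 5.69 to 6.65 (median 6.16) at 20% CR and 6.88 to 7.90 (median 7.38) at 40% CR. Its groups did not overlap, with a log2 difference of 1.22 (SE 0.17, 2.33-fold, adjusted p = 0.00179). Of the 12 tested genes on the list of gluconeogenesis and fasting these were the only 2 past the threshold (16.7% rose, against 3.93% of all genes). The list's median difference was 0.27 against -0.003 over all genes. G6pc, the glucose-6-phosphatase of the last step, differed by 0.31 (SE 0.31, adjusted p = 0.585), and the transporter Slc37a4, which feeds it, by 0.59 (SE 0.21, adjusted p = 0.107). Pklr, the liver pyruvate kinase of glycolysis, differed by -0.54 (SE 0.19, adjusted p = 0.0944). The rise of Igfbp1 was not past the threshold in 13 of 22 alternatives (adjusted p up to 0.0983), while that of Pck1 passed in all 23.

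The promoters of 3 genes that moved and whose control by insulin, cyclic AMP or glucose is well described are shown with the letters of the known element in capitals (RefSeq, GRCm38.p6, 250 bases before to 50 after the transcription start, plus strand). The Igfbp1 window lies at chr11:7197537-7197836, and its capitals mark CAAAACA, the insulin response sequence known from the human and rat genes, 108 bases before the start.
Igfbp1: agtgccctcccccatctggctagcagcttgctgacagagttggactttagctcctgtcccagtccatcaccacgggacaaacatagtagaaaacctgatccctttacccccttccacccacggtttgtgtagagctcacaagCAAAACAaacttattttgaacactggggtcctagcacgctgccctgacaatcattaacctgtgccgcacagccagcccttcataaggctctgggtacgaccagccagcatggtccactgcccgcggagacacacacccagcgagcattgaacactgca
The Pck1 window lies at chr2:173152823-173153122, and its capitals mark TTACGTCA, the cyclic AMP response element known from the rat gene, 93 bases before the start.
Pck1: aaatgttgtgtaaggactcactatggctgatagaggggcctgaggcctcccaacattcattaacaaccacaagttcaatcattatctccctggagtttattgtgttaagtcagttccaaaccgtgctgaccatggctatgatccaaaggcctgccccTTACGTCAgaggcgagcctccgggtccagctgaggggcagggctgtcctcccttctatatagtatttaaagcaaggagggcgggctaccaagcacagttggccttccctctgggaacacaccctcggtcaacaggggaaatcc
The window of Txnip, which fell, lies at chr3:96557707-96558006, and its capitals mark the 2 copies of CACGAG, 85 and 74 bases before the start, that form the carbohydrate response element known from the human gene.
Txnip: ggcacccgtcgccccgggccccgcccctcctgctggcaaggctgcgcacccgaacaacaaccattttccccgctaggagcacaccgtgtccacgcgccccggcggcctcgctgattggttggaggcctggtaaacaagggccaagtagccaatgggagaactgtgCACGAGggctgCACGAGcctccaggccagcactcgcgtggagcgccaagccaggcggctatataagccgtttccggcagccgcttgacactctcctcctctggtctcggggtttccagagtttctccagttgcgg
The same letters were counted in all promoters. On both strands, CAAAACA stood in 5% of the 220 risen, 3.41% of the 88 fallen and 4.49% of all 5697 tested genes with a promoter in the table. TTACGTCA stood in 0.909%, 0% and 0.825% of them, and CACGAG in 3.64%, 7.95% and 8.69%. Over all 27025 promoters of the table the shares were 6.24%, 0.533% and 6.62%. A match is a description of the letters and not a measured binding site.

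Txnip, Gys2 and Rgs16 fell at 40% CR and Pgm1 rose. Txnip, the thioredoxin-interacting protein that restrains glucose uptake and is induced by glucose through ChREBP, was 8.48 to 9.58 (median 9.16) at 20% CR and 7.77 to 8.61 (median 8.39) at 40% CR. The groups overlapped only in that array CF-70 at 20% CR, with 8.48, lay below the 2 highest arrays at 40% CR, and the log2 difference was -0.74 (SE 0.18, 1.68-fold, adjusted p = 0.0257). Gys2, the liver glycogen synthase, was 7.61 to 7.99 (median 7.93) at 20% CR and 6.93 to 7.41 (median 7.25) at 40% CR. Its 2 ranges were separate, with a log2 difference of -0.65 (SE 0.10, 1.57-fold, adjusted p = 0.00349). Pgm1, the phosphoglucomutase that links glycogen to glycolysis, moved the other way, with 9.17 to 9.46 (median 9.27) at 20% CR and 9.62 to 9.90 (median 9.78) at 40% CR. Its ranges were separate as well, with a log2 difference of 0.47 (SE 0.08, 1.39-fold, adjusted p = 0.00591). Ugp2, which makes the UDP-glucose that Gys2 uses, differed by -0.42 (SE 0.16, adjusted p = 0.125). On the list of glycogen and glucose handling 1 of 10 tested genes rose and 1 fell (20% called, against 5.57% of all genes, median -0.11). Rgs16, a regulator of G protein signalling, was 9.82 to 11.25 (median 10.41) at 20% CR and 8.21 to 9.82 (median 9.64) at 40% CR. The groups were separate by a narrow margin, and the log2 difference was -1.07 (SE 0.27, 2.1-fold, adjusted p = 0.0315), lost in 10 of 23 alternatives.

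Of 17 tested lipogenesis genes 4 fell and 1 rose (29.4% called, against 5.57% of all genes), with a median difference of -0.33. Mid1ip1, an activator of acetyl-CoA carboxylase, was 7.95 to 8.52 (median 8.24) at 20% CR and 6.29 to 7.77 (median 7.49) at 40% CR. Fads2, the delta-6 desaturase of polyunsaturated fatty acid synthesis, was 8.59 to 9.16 (median 8.96) at 20% CR and 7.19 to 8.42 (median 8.13) at 40% CR. In both genes every array at 40% CR was below every array at 20% CR. The differences were -0.97 (SE 0.21, adjusted p = 0.0159) for Mid1ip1 and -0.92 (SE 0.18, adjusted p = 0.00891) for Fads2. Agpat2, which acylates lysophosphatidic acid on the way to triglyceride, fell by 0.51 (SE 0.11, adjusted p = 0.0147). Srebf1, which encodes SREBP-1, fell by 0.64 (SE 0.18, adjusted p = 0.0446). Against them, Me1, the malic enzyme that supplies NADPH, rose by 0.49 (SE 0.13, adjusted p = 0.0367). The stearoyl-CoA desaturase Scd1 had a positive difference of 0.59 that did not pass (adjusted p = 0.0843), and Thrsp, the homologue of Mid1ip1, a negative one of -0.70 (adjusted p = 0.189). Falls numbered 3 both with the runs as a random block and without arrays CF-106 and CF-107, and the rise of Me1 passed in neither. Without those 2 arrays the list's median was -0.20. In the fit over all 72 arrays, described further on, no gene of the list passed (adjusted p = 0.0876 for Mid1ip1, 0.0959 for Fads2 and 0.087 for Agpat2).

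Of 32 tested genes that serve fatty acid oxidation or are PPARα targets 26 had a negative difference (median -0.24), 3 fell and 1 rose. Positive differences made up 18.8% of the list, against 49.5% of all genes, and 12.5% were called, against 5.57%. Decr2, the peroxisomal 2,4-dienoyl-CoA reductase, was 8.40 to 9.01 (median 8.55) at 20% CR and 7.52 to 8.27 (median 8.00) at 40% CR. Decr1, its mitochondrial counterpart, was 7.24 to 7.60 (median 7.47) at 20% CR and 6.46 to 7.22 (median 7.00) at 40% CR. Each gene was lower on all 6 arrays at 40% CR than on any at 20% CR, with differences of -0.63 (SE 0.14, adjusted p = 0.0159) and -0.55 (SE 0.12, adjusted p = 0.0192). A second Decr2 probe fell by 0.63 too (adjusted p = 0.0271). Ppara itself fell by 0.63 (SE 0.18, adjusted p = 0.0468), with 7.24 to 7.75 (median 7.62) at 20% CR and 6.05 to 7.29 (median 7.05) at 40% CR. Hadhb, the thiolase subunit of the mitochondrial trifunctional protein, rose by 0.55 (SE 0.12, adjusted p = 0.0187). The starvation hormone Fgf21 varied widely within both groups, with 5.24 to 8.53 (median 7.04) at 20% CR and 6.25 to 8.03 (median 6.71) at 40% CR, and its difference was -0.11 (adjusted p = 0.913). None of the 5 tested genes of ketone body synthesis and use passed. Without arrays CF-106 and CF-107 the median of the fatty acid oxidation list was -0.13, with 2 falls and no rise, and with the runs as a random block 1 gene fell and none rose. Counted over all 47 tested probes of the list 6 were lower and 1 higher.

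**Figure D2:**
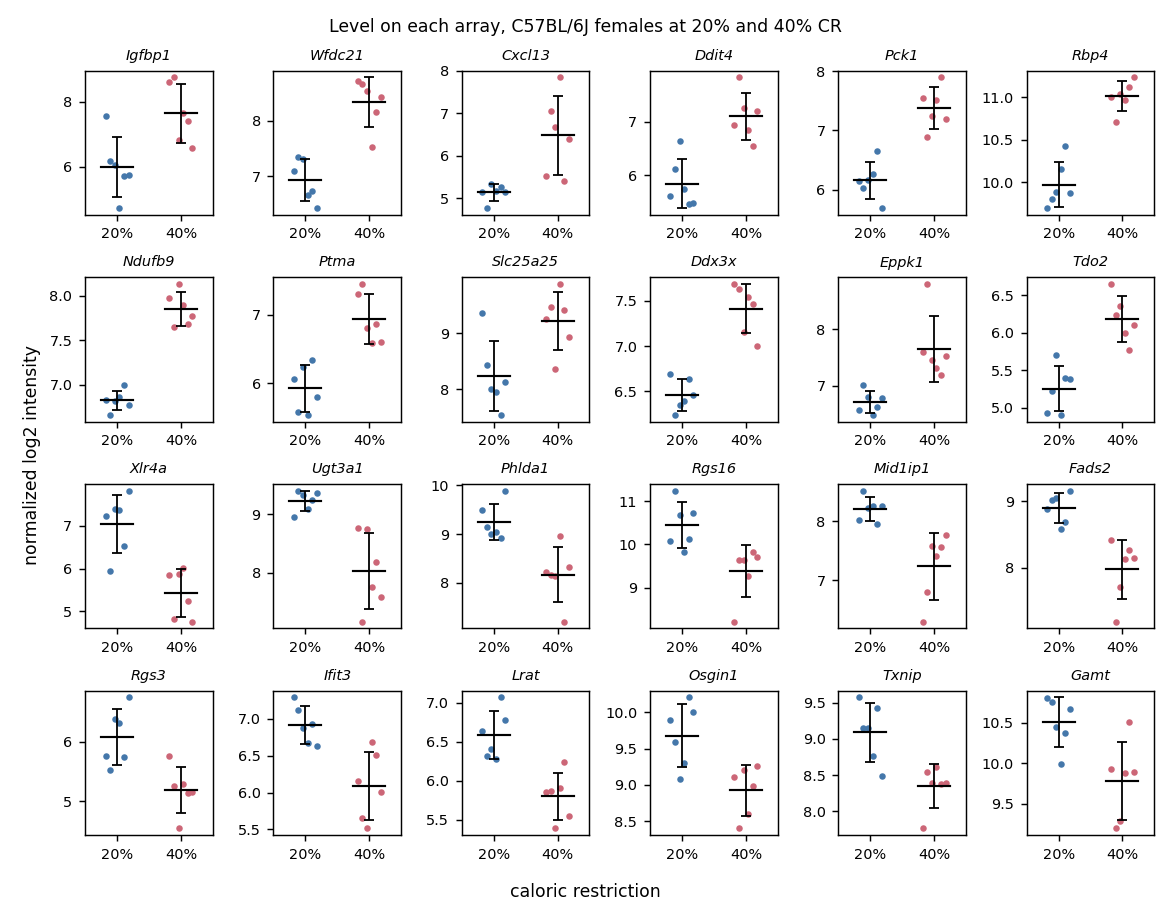
Normalized log2 intensity (y axis) of the 12 genes with the largest rises (upper 2 rows) and the 12 with the largest falls (lower 2 rows) on each array of C57BL/6J females at 20% and 40% CR (x axis). Points are arrays, bars the mean and whiskers the SD (n = 6). Pck1, Rbp4, Ndufb9 and Ddx3x show separate groups, whereas in Igfbp1 array CF-55 at 20% CR reaches 7.57, inside the 40% CR range.

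On the list of the growth hormone and IGF axis 2 of 16 tested genes rose, Igfbp1 and Socs2, and Igfbp2 fell (18.8% called, against 5.57% of all genes; median -0.03). Neither rise passed with the runs as a random block or without arrays CF-106 and CF-107. Igfbp2, another IGF-binding protein made by the liver, was 9.73 to 10.62 (median 10.12) at 20% CR and 9.27 to 9.67 (median 9.48) at 40% CR. All 6 arrays at 40% CR lay below all 6 at 20% CR, and the log2 difference was -0.68 (SE 0.13, 1.61-fold, adjusted p = 0.00755), with -0.41 in its second probe (adjusted p = 0.076). Socs2, a growth hormone target that damps the receptor, was 8.71 to 9.69 (median 9.24) at 20% CR and 9.18 to 10.65 (median 10.01) at 40% CR. The groups overlapped, and the log2 difference of 0.77 (SE 0.22, 1.7-fold, adjusted p = 0.0494) was lost in 21 of 23 alternatives. Igf1 differed by -0.04 (SE 0.09, adjusted p = 0.832).

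Sex-biased genes, which pituitary growth hormone patterns in the liver, showed few calls. None of 15 tested female-biased genes passed, although their median difference was -0.44. Cyp2b9, a female-predominant cytochrome P450, differed by -0.68 (SE 0.20, adjusted p = 0.0536) and Cyp2b13, another, by -0.84 (SE 0.36, adjusted p = 0.166). Without arrays CF-106 and CF-107 the median of the female-biased genes was -0.15, and over all their tested probes it was -0.14. Of 20 tested male-biased genes 1 rose and 1 fell (10% called, against 5.57% of all genes, median 0.06). Cyp2d9, a male-predominant P450 that hydroxylates testosterone, was 7.16 to 8.48 (median 7.56) at 20% CR and 8.27 to 8.80 (median 8.45) at 40% CR, a log2 difference of 0.73 (SE 0.19, 1.66-fold, adjusted p = 0.0346). Cyp7b1, the oxysterol hydroxylase, was 7.73 to 8.05 (median 7.92) at 20% CR and 6.87 to 7.86 (median 7.46) at 40% CR, a log2 difference of -0.49 (SE 0.14, 1.41-fold, adjusted p = 0.0493). Both overlapped between groups, and Cyp2d9 lost its call in 14 and Cyp7b1 in 18 of 23 alternatives. Bcl6, the repressor that holds down female genes in males, differed by 0.69 (SE 0.21, adjusted p = 0.0622).

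Among the genes of bile acid and drug metabolism Baat, which joins bile acids to taurine or glycine, rose, with 8.12 to 8.90 (median 8.48) at 20% CR and 9.12 to 9.71 (median 9.28) at 40% CR. The ranges were separate and the log2 difference was 0.84 (SE 0.13, 1.79-fold, adjusted p = 0.00369). Slc27a5, which activates the bile acids for that step, differed by -0.22 (adjusted p = 0.14). Baat and Cyp7b1 were the only calls among 17 tested bile acid genes (11.8%, against 5.57% of all genes). Ugt3a1, a UDP-glycosyltransferase, was 8.96 to 9.40 (median 9.29) at 20% CR and 7.15 to 8.77 (median 7.96) at 40% CR. Among called genes only Xlr4a fell further, and the groups did not overlap, with a log2 difference of -1.21 (SE 0.23, 2.31-fold, adjusted p = 0.00882). Its paralogue Ugt3a2 fell by 0.46 (SE 0.13, adjusted p = 0.0423) and the flavin monooxygenase Fmo1 by 0.40 (SE 0.11, adjusted p = 0.0422), both with overlap, and Ugt3a2 lost its call in 13 and Fmo1 in 16 of 23 alternatives. On the list of conjugation and NRF2 targets 1 of 38 tested genes rose and 3 fell (10.5% called, against 5.57% of all genes). Of 24 tested cytochrome P450 genes 2 rose (8.33%, against 3.93%), Cyp2d9 and Cyp2c29, the latter by 0.67 (SE 0.16, adjusted p = 0.0257). With the runs as a random block no P450 gene passed, and the falls on the conjugation list numbered 1, as they did without arrays CF-106 and CF-107.

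Tdo2, the tryptophan dioxygenase that glucocorticoids and glucagon induce, was 4.91 to 5.70 (median 5.30) at 20% CR and 5.77 to 6.65 (median 6.17) at 40% CR. It was the only call among 35 tested genes of the urea cycle and amino acid catabolism (2.86%, against 5.57% of all genes). On that list 13 differences were positive (median -0.08). The Tdo2 groups were separate, with a log2 difference of 0.92 (SE 0.16, 1.9-fold, adjusted p = 0.00482). Gamt, the last enzyme of creatine synthesis, was 9.99 to 10.80 (median 10.56) at 20% CR and 9.20 to 10.51 (median 9.88) at 40% CR. The groups overlapped, and the log2 difference of -0.72 (SE 0.20, 1.65-fold, adjusted p = 0.0427) was lost in 19 of 23 alternatives. Ddit4, also called REDD1, an inhibitor of mTORC1 induced by fasting and glucocorticoids, was 5.48 to 6.64 (median 5.68) at 20% CR and 6.55 to 7.83 (median 7.06) at 40% CR. A single array at 20% CR, with 6.64, reached above the lowest array at 40% CR, and the log2 difference was 1.25 (SE 0.22, 2.38-fold, adjusted p = 0.00526). With Pck1 it made 2 rises among 14 tested glucocorticoid-induced genes (14.3%, against 3.93% of all genes, median 0.16). Phlda1, a pleckstrin homology domain protein, was 8.91 to 9.89 (median 9.10) at 20% CR and 7.20 to 8.96 (median 8.19) at 40% CR, a log2 difference of -1.08 (SE 0.23, 2.11-fold, adjusted p = 0.0155). Osgin1, an NRF2-linked regulator of cell growth, was 9.08 to 10.21 (median 9.74) at 20% CR and 8.40 to 9.25 (median 9.05) at 40% CR, a log2 difference of -0.75 (SE 0.19, 1.69-fold, adjusted p = 0.034). Both of these falls had a small overlap between the groups, and that of Osgin1 was lost in 11 of 23 alternatives.

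The mitochondrial list held the largest number of rises. Of 67 tested oxidative phosphorylation genes 11 rose (16.4% of them, against 3.93% of all genes) and none fell, yet the median was -0.01 and 32 differences were positive. Ndufb9, a subunit of complex I, was 6.66 to 7.00 (median 6.82) at 20% CR and 7.65 to 8.13 (median 7.83) at 40% CR. Its groups lay far apart, with the lowest adjusted p-value of the genes named by rule, and a log2 difference of 1.03 (SE 0.10, 2.04-fold, adjusted p = 0.000112). Sdhd, which anchors complex II in the membrane, was 6.17 to 6.67 (median 6.48) at 20% CR and 7.08 to 7.37 (median 7.25) at 40% CR. Its groups were separate too, with a log2 difference of 0.81 (SE 0.10, 1.76-fold, adjusted p = 0.0009). Uqcrb of complex III rose by 0.57 (SE 0.10, adjusted p = 0.00518), Cox6c of complex IV by 0.65 (SE 0.12, adjusted p = 0.00768) and Ndufb2 of complex I by 0.61 (SE 0.13, adjusted p = 0.014). The other 6 were Atp5a1, Atp5h, Ndufb4, Ndufb10, Ndufb5 and Atp5e. Counted over all 81 tested probes of the list 15 were higher, and the count of genes was 5 without arrays CF-106 and CF-107 and 6 with the runs as a random block. Among 24 tested genes of the citric acid cycle and pyruvate 3 rose and 1 fell (16.7% called, against 5.57% of all genes, median 0.01). Dld, the dihydrolipoamide dehydrogenase shared by the keto acid dehydrogenase complexes, was 4.73 to 5.16 (median 5.03) at 20% CR and 5.33 to 6.19 (median 5.79) at 40% CR. It was detected on 4 of 6 arrays at 20% CR and all 6 at 40% CR, and the log2 difference was 0.82 (SE 0.13, 1.77-fold, adjusted p = 0.00369). Mdh2, the mitochondrial malate dehydrogenase, rose by 0.61 (SE 0.14, adjusted p = 0.0204) and the dicarboxylate carrier Slc25a10 fell by 0.42 (SE 0.09, adjusted p = 0.0197). With the runs as a random block 1 gene of this list rose and none fell. Slc25a25, a mitochondrial carrier of ATP-magnesium and phosphate, was 7.55 to 9.35 (median 8.07) at 20% CR and 8.37 to 9.87 (median 9.34) at 40% CR, and its log2 difference of 0.98 (SE 0.27, 1.97-fold, adjusted p = 0.0451) was lost in 18 of 23 alternatives.

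Most ribosomal protein and proteasome genes had small positive differences. Of 51 tested ribosomal protein genes 45 had a positive difference (median 0.15), or 88.2% against 49.5% of all genes. The 4 that rose (7.84%, against 3.93% of all genes) were Rpl35a by 0.53 (adjusted p = 0.0141), Rpl36a by 0.42 (adjusted p = 0.0279), Rpl3 by 0.41 (adjusted p = 0.0283) and Rpl37a. In all 4 the groups overlapped, Rpl3 lost its call in 10 and Rpl36a in 9 of 23 alternatives, and the count was 1 without arrays CF-106 and CF-107 and 1 with the runs as a random block. Many ribosomal protein genes have processed copies, which a probe may not tell apart. Of 30 tested proteasome genes 24 were positive (80%, against 49.5% of all genes, median 0.10) and 2 rose (6.67%, against 3.93%). Psma3, a subunit of the core, was 10.35 to 10.78 (median 10.62) at 20% CR and 10.87 to 11.17 (median 10.97) at 40% CR, a log2 difference of 0.42 (SE 0.10, 1.34-fold, adjusted p = 0.0236) without overlap. Psmd6, of the regulatory cap, was detected on 1 array at 20% CR and on all 6 at 40% CR (limma adjusted p = 0.0069). No size is given here since 5 of the 6 levels at 20% CR were not above background. It met the detection filter through the 40% CR arrays, so its values are a description only, although the count of 2 rises includes it. With the runs as a random block 1 proteasome gene rose, and without arrays CF-106 and CF-107 1 did and the list's median was 0.03. Psmd7, also of the cap, differed by 0.28 (adjusted p = 0.119).

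Of 19 tested endoplasmic reticulum genes 3 rose and 1 fell (21% called, against 5.57% of all genes, median 0.07). Dnajb9, a co-chaperone of BiP that the IRE1 branch of the stress response induces, was 7.37 to 8.06 (median 7.79) at 20% CR and 8.13 to 9.02 (median 8.60) at 40% CR. Selenok, a selenoprotein of the reticulum's membrane that takes part in degradation of misfolded proteins, was 5.81 to 6.67 (median 6.28) at 20% CR and 6.80 to 7.32 (median 7.13) at 40% CR. Neither gene overlapped between groups, and both rose by 0.82 (adjusted p = 0.00518 for Dnajb9 and 0.00369 for Selenok). Calreticulin, Calr, the lectin chaperone, fell by 0.49 (SE 0.13, adjusted p = 0.0389), with the call lost in 13 of 23 alternatives, while Hsp90b1 rose by 0.41 (SE 0.11, adjusted p = 0.0435). In the heat shock list 2 of 14 rose (14.3%, against 3.93% of all genes). They were the mitochondrial co-chaperonin Hspe1 by 0.50 (SE 0.11, adjusted p = 0.018) and the HSP70 co-factor St13 by 0.43 (SE 0.11, adjusted p = 0.0291). Ahsa1, which stimulates HSP90, differed by -0.29 (adjusted p = 0.104). St13 lost its call in 11 of 23 alternatives. Of 26 tested genes of autophagy and the lysosome 2 rose (7.69%, against 3.93% of all genes, median -0.06). Map1lc3b, whose protein marks autophagosomes, was 6.75 to 7.11 (median 6.99) at 20% CR and 7.30 to 7.87 (median 7.66) at 40% CR, a log2 difference of 0.64 (SE 0.11, 1.56-fold, adjusted p = 0.00497). Npc2, the lysosomal cholesterol carrier, was 6.71 to 7.23 (median 6.92) at 20% CR and 7.37 to 7.97 (median 7.60) at 40% CR, a log2 difference of 0.66 (SE 0.12, 1.58-fold, adjusted p = 0.00672). In both genes the groups were separate. Lamp2, of the lysosomal membrane, differed by 0.34 (adjusted p = 0.0797).

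**Figure D3:**
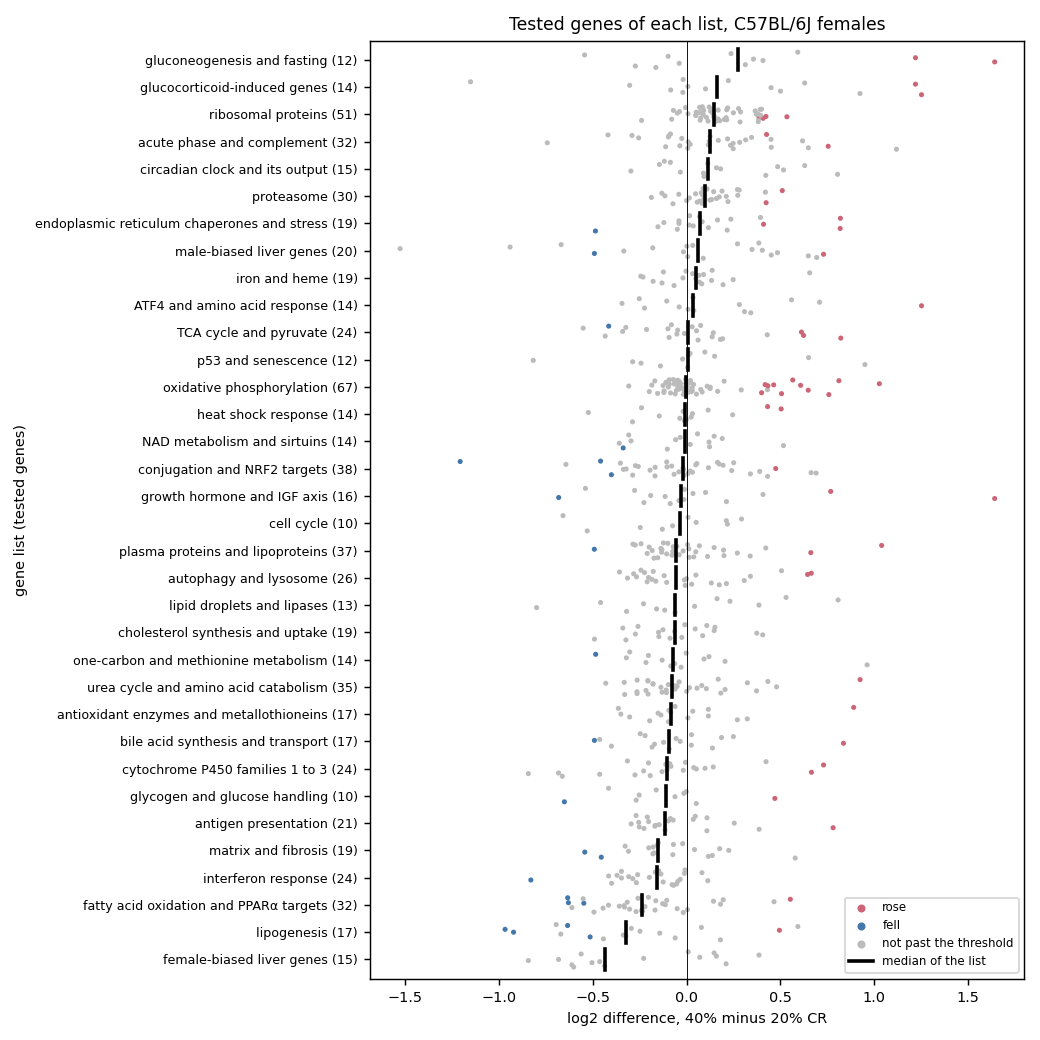
Log2 difference (40% minus 20% CR, x axis) of every tested gene on the lists with at least 10 tested genes (y axis, with the number tested). Points are genes, coloured where they rose or fell, and the black bar is the list's median. The median is lowest for the female-biased genes (-0.44), none of which passed the threshold, and highest for gluconeogenesis and fasting (0.27).

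Rbp4, Apoh, Cfb, Serpina1a and Wfdc21, which encode secreted proteins, rose. Rbp4, which carries retinol in plasma, was 9.70 to 10.42 (median 9.88) at 20% CR and 10.71 to 11.24 (median 11.03) at 40% CR. The groups were separate and the log2 difference was 1.04 (SE 0.13, 2.06-fold, adjusted p = 0.0009). Apoh, a phospholipid-binding plasma glycoprotein, rose by 0.66 (SE 0.11, adjusted p = 0.00444), and clotting factor F7 fell by 0.49 (SE 0.12, adjusted p = 0.029). These were the other calls among 37 tested plasma protein genes (8.11% called, against 5.57% of all genes, median -0.06). F7 lost its call in 12 of 23 alternatives. Cfb, factor B of the alternative complement pathway, was 8.59 to 9.25 (median 8.84) at 20% CR and 9.29 to 9.81 (median 9.65) at 40% CR, without overlap and with a log2 difference of 0.75 (SE 0.12, 1.69-fold, adjusted p = 0.00369). Serpina1a, an alpha-1-antitrypsin, rose by 0.43 (SE 0.10, adjusted p = 0.0272), and its second probe differed by 0.33 (adjusted p = 0.172). Serpina1a has close paralogues that a probe may not tell apart. Cfb and Serpina1a were 2 rises among 32 tested acute phase and complement genes (6.25%, against 3.93% of all genes, median 0.12). On that list Itih3 differed by 0.62 (adjusted p = 0.0861) and Apcs, serum amyloid P, by 1.12 (adjusted p = 0.101). With the runs as a random block and without arrays CF-106 and CF-107 the list had 1 rise each, and Serpina1a lost its call in 10 of 23 alternatives. Wfdc21, a secreted protein of the whey acidic protein family, was 6.43 to 7.36 (median 6.91) at 20% CR and 7.53 to 8.71 (median 8.48) at 40% CR. All 6 arrays at 40% CR lay above all 6 at 20% CR, and the log2 difference was 1.41 (SE 0.20, 2.65-fold, adjusted p = 0.00214).

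Cxcl13, the chemokine that attracts B cells, was 4.76 to 5.32 (median 5.17) at 20% CR and 5.40 to 7.85 (median 6.54) at 40% CR. The groups did not overlap, but the 40% CR arrays were widely spread, and the log2 difference of 1.35 (SE 0.32, 2.54-fold, adjusted p = 0.024) was lost in 10 of 22 alternatives. B cell markers were close to background, since 8 of 11 on the array, Cd79a among them, were detected on none of the 12 arrays, and 1 was tested. Of 24 tested interferon response genes 22 had a negative difference (median -0.16). Positive differences made up 8.33% of that list, against 49.5% of all genes, and 4.17% fell, against 1.65%. Ifit3, an interferon-induced antiviral protein, was 6.63 to 7.29 (median 6.90) at 20% CR and 5.51 to 6.68 (median 6.08) at 40% CR, and was the only call, with a log2 difference of -0.83 (SE 0.19, 1.78-fold, adjusted p = 0.0189). Isg15 differed by -0.42 (adjusted p = 0.088). Counted over all 34 tested probes of the list 5 were lower. They include 3 probes of Irf1, named here after its values were seen, with differences of -0.76, -0.78 and -0.67 (adjusted p = 0.014, 0.0141 and 0.042), while the brightest Irf1 probe differed by -0.35 (adjusted p = 0.254). No interferon response gene passed without arrays CF-106 and CF-107 or in the fit over all 72 arrays. Of 16 tested macrophage and Kupffer cell markers Cd163, a haemoglobin scavenger receptor, rose by 0.72 (SE 0.15, adjusted p = 0.014), the ficolin Fcna fell by 0.47 (SE 0.13, adjusted p = 0.0496) and the scavenger receptor Marco differed by 0.65 (adjusted p = 0.179). Calls were made for 12.5% of these markers, against 5.57% of all genes. Fcna lost its call in 16 of 23 alternatives. The mean level of these 16 markers ranged from 7.29 to 7.74 at 20% CR and from 7.33 to 8.22 at 40% CR, with Cd5l and Itgam detected on no array. The 6 detected neutrophil markers of 14 ranged from 6.84 to 8.00 and from 6.74 to 8.06, with Camp, Fcnb, Mmp8, Mpo and Ngp detected on none. The part of cell numbers in these results was not tested.

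Lrat and 2 matrix genes fell. Lrat, which esterifies retinol for storage in stellate cells, was 6.28 to 7.07 (median 6.52) at 20% CR and 5.39 to 6.24 (median 5.86) at 40% CR. The groups were separate, with a log2 difference of -0.78 (SE 0.16, 1.72-fold, adjusted p = 0.011), opposite in direction to the retinol carrier Rbp4. The 11 tested stellate cell and fibroblast markers had a median of -0.17, and their mean level ranged from 6.91 to 7.32 at 20% CR and from 6.72 to 7.23 at 40% CR. Col1a1, Col1a2, Col3a1, Hhip, Pdgfrb and Tagln were detected on no array, and the part of stellate cell number in the fall of Lrat was not tested. The 17 tested endothelial markers averaged from 6.81 to 7.06 at 20% CR and from 6.69 to 6.89 at 40% CR. Their median difference was -0.14, and 3 differences were positive (17.65%, against 49.5% of all genes). Ptprb, which rose, was the only call among them (5.88%, against 5.57% of all genes). Of 19 tested matrix and fibrosis genes 2 fell (10.5%, against 1.65% of all genes). They were the collagen Col14a1 by 0.46 (SE 0.11, adjusted p = 0.024) and the laminin chain Lama1 by 0.54 (SE 0.14, adjusted p = 0.0336), the latter detected on 4 arrays at 40% CR. Neither passed without arrays CF-106 and CF-107 or with the runs as a random block. Ccn2, a matrix protein induced by TGF-β, differed by 0.58 (adjusted p = 0.167).

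Further calls on the remaining lists were single genes. Shmt1, the cytosolic serine hydroxymethyltransferase, fell by 0.49 (SE 0.12, adjusted p = 0.0254) among 14 tested one-carbon genes, and Nadk, the NAD kinase, fell by 0.34 (SE 0.09, adjusted p = 0.0428) among 14 of NAD metabolism. On each list 7.14% of the tested genes were called, against 5.57% of all genes. Txn1, thioredoxin, rose by 0.89 (SE 0.12, adjusted p = 0.00181) among 17 tested antioxidant genes, and H2-D1, a class I histocompatibility gene, by 0.78 (SE 0.11, adjusted p = 0.00179) among 21 of antigen presentation. These calls made up 5.88% and 4.76% of the tested genes on their lists. Hbb-bt rose among 5 tested erythroid markers (20% called).

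The other large changes belonged to no list. Xlr4a, of an X-linked family of near-identical copies that a probe may not tell apart, showed the largest fall, with 5.96 to 7.82 (median 7.29) at 20% CR and 4.76 to 6.03 (median 5.55) at 40% CR. Only 1 array at 20% CR reached into the 40% CR range, and the log2 difference was -1.62 (SE 0.30, 3.07-fold, adjusted p = 0.0069). Rgs3, a regulator of G protein signalling, was 5.51 to 6.74 (median 6.04) at 20% CR and 4.54 to 5.75 (median 5.20) at 40% CR, a log2 difference of -0.89 (SE 0.21, 1.85-fold, adjusted p = 0.0249) with overlap. Ptma, the nuclear protein prothymosin alpha, was 5.54 to 6.34 (median 5.93) at 20% CR and 6.58 to 7.45 (median 6.84) at 40% CR, a log2 difference of 1.01 (SE 0.18, 2.01-fold, adjusted p = 0.00528). Ddx3x, an X-linked RNA helicase of translation initiation, was 6.24 to 6.69 (median 6.43) at 20% CR and 7.00 to 7.68 (median 7.51) at 40% CR. These 2 rises had separate groups, and the Ddx3x log2 difference was 0.95 (SE 0.13, 1.94-fold, adjusted p = 0.00144). Eppk1, the cytoskeletal linker epiplakin, was 6.48 to 7.02 (median 6.70) at 20% CR and 7.19 to 8.81 (median 7.50) at 40% CR, a log2 difference of 0.94 (SE 0.21, 1.92-fold, adjusted p = 0.0197). Its groups were separate, but array CF-106 alone stood at 8.81. The probe with the lowest p-value of all, on Trip12, a ubiquitin ligase, was detected on no array at 20% CR and on all 6 at 40% CR. It is named here after its values were seen, and was at least 1.55-fold higher at 40% CR (limma adjusted p = 0.000112). Since it met the detection filter through the 40% CR arrays alone, these values are a description only. The 2 brighter probes of Trip12 differed by 0.35 (adjusted p = 0.0399) and 0.31 (adjusted p = 0.0677).

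In the clock list, which bears on the hour of collection that the protocol gives in differing forms, none of 15 tested genes passed (median 0.11). Per1 differed by 0.63 (SE 0.19, adjusted p = 0.0584), Ciart by 0.80 (adjusted p = 0.0764) and Nr1d2 by 0.49 (adjusted p = 0.0704), whereas Dbp differed by -0.30 and Arntl by 0.09. In the fit over all 72 arrays 3 clock genes passed, all higher, and without arrays CF-106 and CF-107 1 did. No gene passed either among 19 tested cholesterol synthesis and uptake genes (median -0.06), 13 of lipid droplets and lipases (-0.06), 10 of the cell cycle (-0.03), 12 of p53 and senescence (0.01) and 19 of iron and heme (0.05).

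The level under AL feeding is set beside the CR groups as a description, since those mice had eaten and the comparison would share the CR arrays. Levels in this paragraph come from the normalization of all 72 arrays and are means ± SD with n = 6. Igfbp1 stood at 6.94 ± 0.42 in AL, 6.02 ± 0.93 at 20% CR and 7.67 ± 0.89 at 40% CR. Pck1 stood at 6.29 ± 0.58, 6.19 ± 0.32 and 7.40 ± 0.34 in the same order. For Pck1 the mean at 40% CR was above both others, which were close. For Wfdc21 the means were 8.75 ± 0.59, 6.96 ± 0.38 and 8.36 ± 0.44. For Ddit4 they were 7.30 ± 1.10, 5.87 ± 0.46 and 7.13 ± 0.43. For Cfb they were 9.62 ± 0.71, 8.86 ± 0.23 and 9.59 ± 0.18. In these 3 genes the group set apart was that at 20% CR, and the means of AL and 40% CR were closer to each other than to it. Among genes that fell, Igfbp2, Gys2 and Txnip had their highest mean at 20% CR, as did others, with Decr2 and Fads2 among them. Igfbp2 stood at 8.61 ± 0.86, 10.1 ± 0.29 and 9.44 ± 0.14 in AL, 20% and 40% CR. Gys2 stood at 6.42 ± 0.70, 7.90 ± 0.14 and 7.26 ± 0.17. Txnip stood at 7.92 ± 0.55, 9.09 ± 0.40 and 8.36 ± 0.30. For Igfbp2, Gys2 and Txnip the mean at 40% CR lay between those of AL and 20% CR. Array CF-5 was the lowest of the AL group for Gys2 (5.11) and Igfbp2 (6.98) but not for Txnip (8.48). Ifit3 alone of the genes plotted stepped down in order, from 8.06 ± 0.44 to 6.95 ± 0.25 and 6.12 ± 0.47. The plotted genes were chosen without a rule, and other named genes stepped down too. Among them were Xlr4a (7.69 ± 0.72, 7.07 ± 0.68 and 5.45 ± 0.56) and Ugt3a1 (9.76 ± 0.71, 9.23 ± 0.17 and 8.05 ± 0.65).

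**Figure D4:**
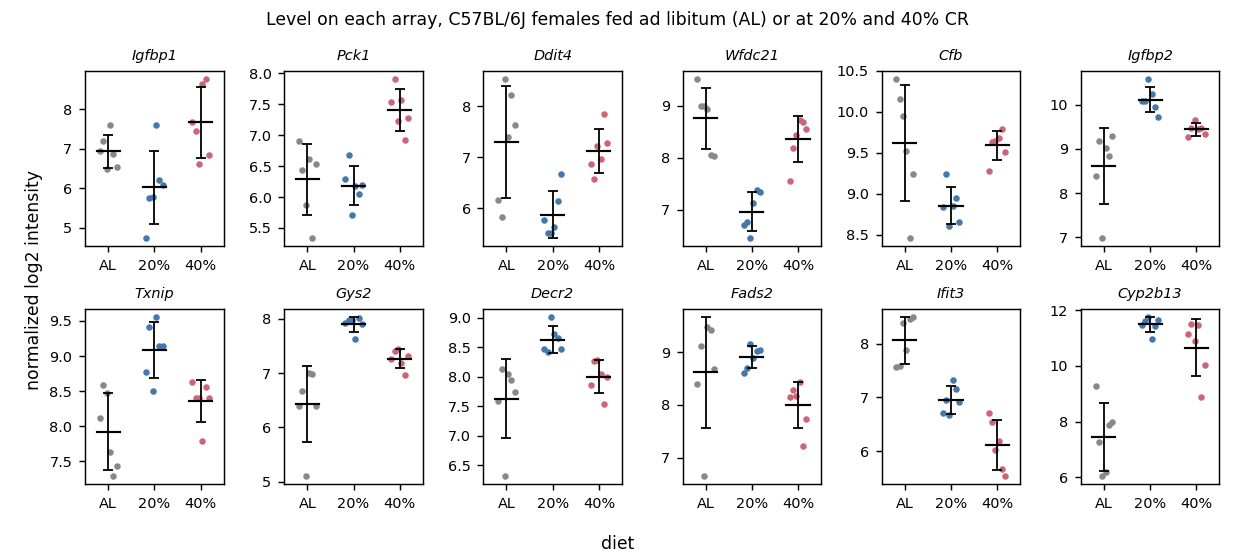
Normalized log2 intensity (y axis, normalization of all 72 arrays) of 12 genes, chosen without a rule, on each array of C57BL/6J females fed ad libitum (AL) or held at 20% or 40% CR (x axis). Points are arrays, bars the mean and whiskers the SD (n = 6). Gys2, Igfbp2, Txnip, Decr2, Fads2 and Cyp2b13 have their highest mean at 20% CR, and Ifit3 steps down from 8.06 to 6.95 and 6.12.

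The same diet step was then set beside that in C57BL/6J males and DBA2/J females, in a limma fit over all 72 arrays with 1 mean per group and on the same 9754 probes. Those probes were chosen by detection in C57BL/6J females, so probes detected only in the other groups are not counted. There C57BL/6J females had 519 calls (5.32%), C57BL/6J males 75 (0.769%) and DBA2/J females 2 (0.0205%), with 1973, 1484 and 851 probes at an unadjusted p-value under 0.05. Of the 272 genes risen in C57BL/6J females 91.5% had a positive difference in C57BL/6J males, against 53.5% of all tested genes, and 69.5% in DBA2/J females, against 52.3%. Of the 114 fallen genes 88.6% had a negative difference in the males, against 46.5% of all, and 43% in DBA2/J females, against 47.7%. The males thus shared the direction of most calls, with median differences of 0.22 for the risen and -0.20 for the fallen genes, and 14 of the 386 were past the threshold there in the same direction (8 risen and 6 fallen). In DBA2/J females the medians were 0.06 and 0.03, and none passed in the same direction. Ugt3a1 differed by nearly the same amount in all 3, by -1.18 in C57BL/6J females, -1.12 in the males and -1.15 in DBA2/J females (SE 0.32 each). It did not pass in the males (adjusted p = 0.0682) or in DBA2/J females (adjusted p = 0.358). Fads2 differed by -0.91, -0.80 and 0.61 (SE 0.33 each), and the difference between the strains did not pass (adjusted p = 0.113).

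Few tests of the difference itself passed. Between C57BL/6J females and males 3 probes passed (0.0308%, with 562 at an unadjusted p-value under 0.05), and between the strains 15 (0.154%, with 1420). Pa2g4, a growth-regulating RNA-binding protein, differed by 0.48 in the females and -0.34 in the males (SE 0.11 each), a difference of 0.82 (SE 0.15, adjusted p = 0.00458). Cyp2b13 differed most. In females it stood between 10.98 and 11.77 at 20% CR and between 8.89 and 11.49 at 40% CR, with AL mice between 6.05 and 9.28. In C57BL/6J males it ran from 4.26 to 9.90 at 20% CR, detected on 3 of 6 arrays, and from 7.41 to 11.1 at 40% CR. The level in males thus rose by 3.80 (SE 0.65, adjusted p = 0.000495) at the step where females differed by -0.83, a difference of -4.63 (SE 0.92, adjusted p = 0.0133). The third probe was the dim one on Trip12 (adjusted p = 0.00458), for which no size is given since it was detected on no female array at 20% CR. It had met the detection filter through the female arrays at 40% CR alone. Cyp2b13 did not pass in a fit of the 24 arrays of these 4 groups alone (adjusted p = 0.128).

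The strain difference, taken as C57BL/6J minus DBA2/J females, was described for 6 genes that had passed in C57BL/6J females and did not pass in DBA2/J females. It was 1.03 for Dld (SE 0.18, adjusted p = 0.00264), 0.81 for Zc3h15, a translation-linked zinc finger protein (SE 0.16, adjusted p = 0.0117), 0.96 for Exosc8, a subunit of the RNA exosome (SE 0.20, adjusted p = 0.0259), and 0.70 for Fam177a (SE 0.15, adjusted p = 0.0305). It was -0.69 for Ppp2r2c, a regulatory subunit of protein phosphatase 2A (SE 0.14, adjusted p = 0.018), and -0.71 for the mitochondrial gene Mtfr1l (SE 0.16, adjusted p = 0.0383). In C57BL/6J females Zc3h15 was 6.17 to 6.59 (median 6.32) at 20% CR and 6.87 to 7.38 (median 7.13) at 40% CR, without overlap, whereas in DBA2/J females its means were 6.09 and 6.10. The Exosc8 means were 5.45 and 5.27 in DBA2/J females, against 5.47 and 6.25 in C57BL/6J females. The probes of Fam177a and the dim Trip12 probe were detected on none of the 12 arrays of restricted DBA2/J females, and that of Dld on 1 at 20% CR and none at 40% CR, so that the sizes for Fam177a and Dld rest on levels near background. In C57BL/6J females the Fam177a probe was detected on 2 of 6 arrays at 20% CR and on all 6 at 40% CR. It met the detection filter through the 40% CR arrays, so its values are a description only. That of Ppp2r2c was detected there on 3 of 6 at 40% CR, and its call was lost in 7 of 22 alternatives. The second Fam177a probe differed by -0.09 in C57BL/6J females (adjusted p = 0.779). Whether a sequence difference between the strains under these probes plays a part was not tested.

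**Figure D5:**
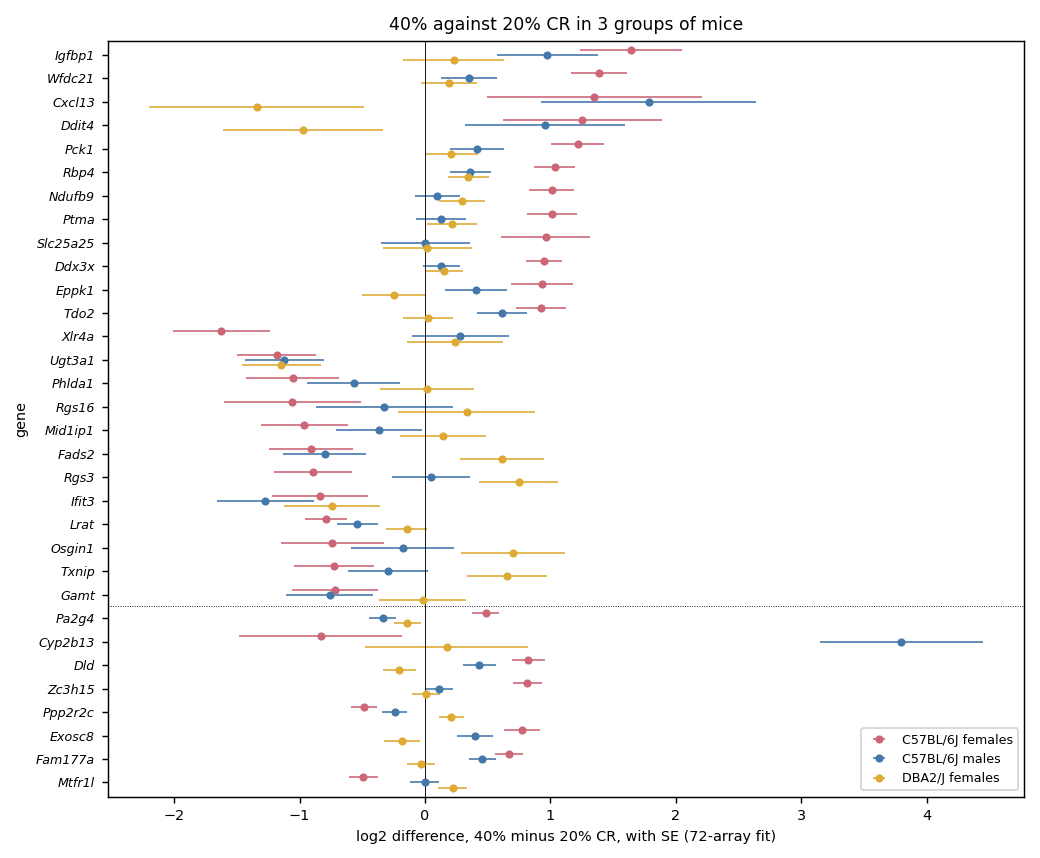
Log2 difference (40% minus 20% CR, x axis) with its SE in C57BL/6J females, C57BL/6J males and DBA2/J females, from the fit over all 72 arrays, for the 24 genes chosen for their size in C57BL/6J females (above the dotted line) and the 8 named for a difference between groups (below it). Ugt3a1 lies between -1.18 and -1.12 in all 3, and Cyp2b13 is at -0.83 in C57BL/6J females and 3.80 in the males.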

How the data were processed

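Liver RNA of 72 mice was measured on Illumina mouse bead arrays, 1 array per sample. The authors deposited raw probe intensities with a detection p-value for each, exported with GenomeStudio 2011.1 per the submitters' processing notes, and a second table of scores that equals the z-score of log10 intensity within each array (72 of 72 arrays). The deposited intensities were background-corrected and quantile-normalized with neqc (offset 16) in limma 3.58.1 (R 4.3.3), using the detection p-values to find the background. Probes detected at p under 0.01 on at least 6 of the 12 arrays were fitted with lmFit and eBayes, and adjusted by Benjamini-Hochberg over all of them. A second fit held all 72 arrays and tested the differences between sexes and strains. Each gene is its brightest probe, and 23978 probes carry 1 symbol, none several and 1719 none. Genes named are the 12 called genes with the largest rises and the 12 with the largest falls, the 3 with the largest moderated statistic on each list with at least 2 calls, and up to 6 of lowest adjusted p for each sex or strain difference. Other list members are given with their values. Members and lists were chosen with earlier results of these data known. The number of arrays limits the precision, and the tests measure the spread between 6 mice per group. Alternatives were other normalizations and filters, the deposited scores, larger fits, array weights, a replicate block, each array left out and, added after seeing the data, the number runs as a random block and the 2 arrays that stood apart left out.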

Additional observations from a re-analysis of the deposited data

Results flagged for a closer look

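In groups of 6 arrays, a value was set aside for a closer look where the gap between the extreme array and its nearest neighbour took a share of the group's range above Dixon's 95 percent critical value. This happened in 10 of 182 groups of values, where chance gives about 5 percent. At 20% CR, array CF-56 was low for Cxcl13 (4.76, share of the range 0.669), array CF-55 was low for Gys2 (7.61, 0.755) and high for the mean of the neutrophil markers (8.00, 0.724), and array CF-68 was high for Per1 (7.55, 0.813). At 40% CR, array CF-105 was low for Rgs16 (8.21, 0.655), Txnip (7.77, 0.734) and Ahsa1 (7.01, 0.676). Array CF-106 was high for Eppk1 (8.81, 0.743), array CF-107 for Uqcrb (10.4, 0.789) and array CF-117 for Marco (7.19, 0.77).

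The response to the diet step differed between C57BL/6J females and C57BL/6J males for Pa2g4 (female minus male log2 difference 0.821) and Cyp2b13 (-4.63). Between C57BL/6J and DBA2/J females it differed for Dld (1.03), Zc3h15 (0.807), Ppp2r2c (-0.695), Exosc8 (0.955), Fam177a (0.702) and Mtfr1l (-0.715). These differences were tested in the limma fit over all 72 arrays, with the adjusted p-values given above.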

How the results depend on the processing

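All 578 calls kept their sign under the 23 alternatives wherever the probe was tested, which was largely fixed in advance because the same arrays were used. Of 82 named genes 69 passed, 24 of them under every alternative, 37 with the number runs as a random block (correlation 0.116) and 39 without arrays CF-106 and CF-107. Against 391 higher and 187 lower probes (578 in all), the counts were 168 and 35 (203) with the runs as a random block and 215 and 66 (281) without arrays CF-106 and CF-107. Leaving out 1 array gave 266 to 575 calls (210 to 391 higher, 56 to 184 lower). The replicate block, fitted on the deposited scores, whose columns carry the replicate numbers, gave 238 and 112 (350), against 407 in all on those scores without the block. Same-numbered samples correlated by 0.031 to 0.505 in their deviations, and 1 of 6 pairs correlated best with its own number. With 6 pairs this cannot decide whether same-numbered samples share more than a number. The sex difference gave 5 probes under quantile normalization against 3, and the strain difference 26 under quantile normalization and 41 with 24 arrays against 15. The cause of these shifts was not tested. Probes near background, such as those of Dld, Fam177a and Ppp2r2c, limit the size of a fold.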

Other observations

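Beyond the genes described above, the probe with the third-lowest p-value lay on Selenop, which encodes the plasma selenium carrier selenoprotein P. This gene was chosen after its values were seen. The probe rose by 1.10 on the log2 scale (SE 0.13, limma adjusted p = 0.000788), from a mean of 9.20 ± 0.22 (SD, n = 6) at 20% CR to 10.3 ± 0.24 (SD, n = 6) at 40% CR, without overlap. The brighter Selenop probe differed by -0.14 (SE 0.09, adjusted p = 0.363), from 12.2 ± 0.16 to 12.1 ± 0.07. Like the Trip12 probes, these 2 probes of 1 gene gave different calls, and the transcript forms they cover were not analysed here.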
